A study of Mus musculus with 12 samples.

Results

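The nuclear genes that encode the machinery of oxidative phosphorylation were followed in basophils grown from mouse bone marrow, across 2 stages of maturation and 2 cytokines. Members were all gene symbols of the count table that begin with Nduf, Uqcr, Cox4 to Cox8 or Atp5, or that are Sdha, Sdhb, Sdhc or Sdhd, without pseudogene symbols, and that reached a mean of 5 CPM (counts scaled to a common library size, on library sizes after TMM normalisation) over the 12 libraries. Of 31301 symbols counted, 93 fitted the names and 82 reached the minimum. The 82 members comprised 37 genes of complex I, 4 of complex II, 8 of complex III, 11 of complex IV, 16 of complex V, and 6 assembly factors or other genes. All 82 were among the 10861 genes tested. The rule used names and a mean over all libraries, and no difference between groups. Such a mean can still admit a gene that reaches the minimum in only some of the groups. The lowest members were Ndufaf1 at 6.28 CPM and Ndufb4 at 6.42 CPM, and the highest symbol left out was Ndufaf5 at 4.74 CPM.

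Oxidative phosphorylation takes electrons from NADH at complex I and from succinate at complex II, passes them by coenzyme Q, complex III and cytochrome c to oxygen at complex IV, and uses the proton gradient so made to drive ATP synthesis at complex V. Apart from complex II, each complex joins subunits encoded in mitochondrial DNA with nuclear-encoded ones, many of them small. Assembly factors help to build a complex without being part of it. Granulocytes are known for a strong use of glycolysis, and proliferating precursors for a larger demand on mitochondria.

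Marrow cells came from C57BL/6J mice of wild-type genotype and were cultured for 7 days with interleukin-3 (IL-3) at 0.3 ng/mL or with thymic stromal lymphopoietin (TSLP) at 1 μg/mL, and both cultures gave bone marrow-derived basophils (BMBAs). One label field writes the TSLP dose in mg, and the dose of the treatment protocol is used here. Sorting separated immature cells (FcεRIαhi CD49blo, the pre-basophils of the study) from mature cells (FcεRIαlo CD49bhi), and with the 2 cultures this made 4 groups with 3 libraries each. All groups are wild type, were cultured for the same time and were sorted with the same gates, and no group was uncultured. The labels do not say whether the 3 libraries of a group came from separate mice or cultures, so p-values measure only the spread between these libraries.

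Libraries held 1720065 to 3685285 counts. Of the stage markers of the study, Clec12a stood at 260 CPM and 127 CPM in IL-3 and TSLP immature cells and at 6.23 and 5.29 CPM in mature cells, while Cd9 was lower in immature cells of both cultures. Basophil genes were abundant in every group, with a summed level of 7 markers between 7413 and 40987 CPM. Of the counts in immature cells, ribosomal RNA took 20.9% ± 5.41 (SD, n = 3) with IL-3 and 36.8% ± 2.88 with TSLP, and in mature cells 21.7% ± 2.45 and 27.8% ± 9.27. The TSLP libraries also stood apart in short transcripts. Among 365 other protein-coding genes with transcripts under 750 bases, the median log2 deviation from the 12-library mean was between 0.24 and 0.61 in the 6 IL-3 libraries. It was 0.05, 0.17 and −0.47 in TSLP immature replicates 1 to 3 and −0.03, −0.61 and −1.21 in TSLP mature replicates 1 to 3. Among 7894 other genes of 1500 bases or more it stayed between −0.05 and 0.14 in all 12 libraries. Of the 82 members 41 have transcripts under 750 bases, and the median member has 752 bases against 2698 bases for all genes tested with a known length. The counts and medians of the members in each comparison are therefore also given with a length correction. It takes each library's median deviation of other protein-coding genes of like length out of the counts. These medians were taken in length classes from under 450 to over 4000 bases and joined by straight lines. No corrected value could be had for the subunits of mitochondrial DNA. This correction was chosen after seeing the data. TSLP mature replicate 1 stood apart in another way: a chi-square of counts per degree of freedom was 40.8 and 51.4 against the other 2 libraries of its group, which differed from each other by 6.53, and it held the highest sums of neutrophil, B cell and macrophage genes of its group. What made short transcripts differ between libraries was not tested, and culture and library quality cannot be told apart here.

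**Figure D1:**
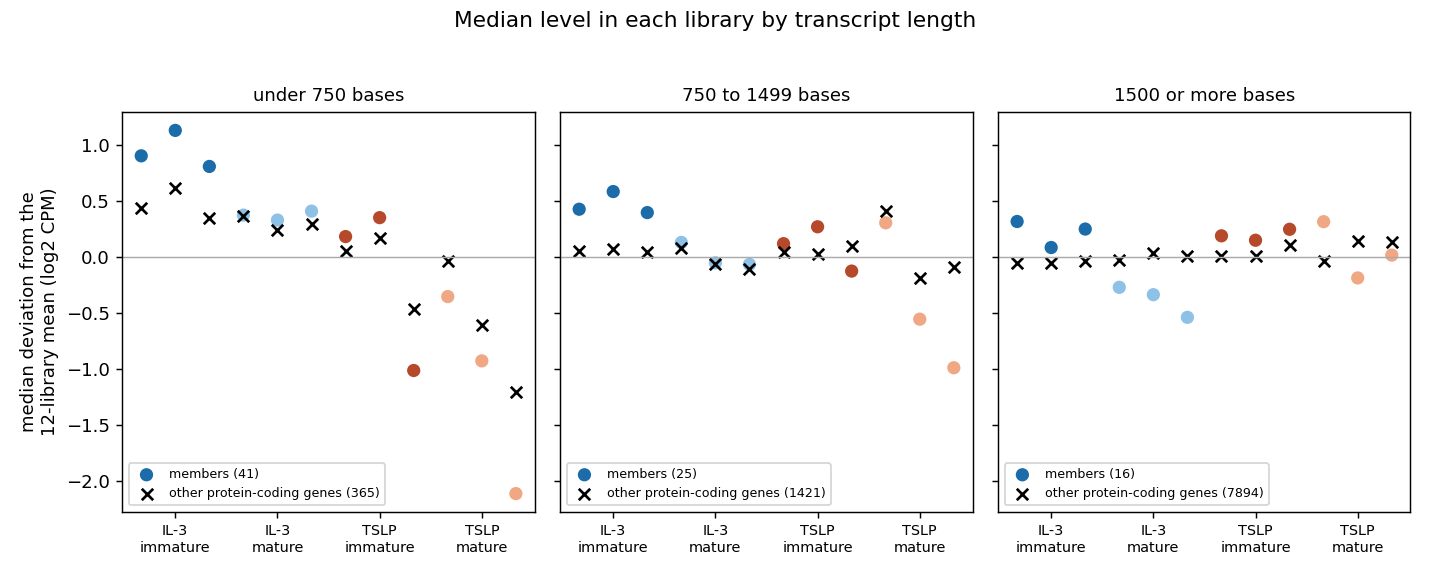
Median deviation of log2 CPM from the 12-library mean (y axis) in each library (x axis, replicates 1 to 3 from left to right in each group), for genes of 3 classes of transcript length. Filled circles are members and crosses other protein-coding genes. Under 750 bases the members run from 1.13 in IL-3 immature replicate 2 to −2.11 in TSLP mature replicate 3, while at 1500 bases or more they stay between −0.54 and 0.31.

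Promoters are shown for the members with the largest differences and for the member holding all motifs searched. Windows of 250 bases before the annotated start were available for 68 members (73 windows, RefSeq, GRCm38.p6). The letters searched on both strands were CGCATGCG, the core of the site of NRF1, a factor known to regulate respiratory genes, CCGGAAG, the core bound by ETS factors such as GABP, and AAGATGGC, the core of the site of YY1. None of the 3 contains another. CGCATGCG was found in 8 of 73 member windows (10.96%), against 3.28% of the 10412 windows of all genes tested and 1.55% of all 32851 windows. CCGGAAG was in 14 (19.2%), against 14.8% and 6.91%. AAGATGGC was in 1 (1.37%), against 2.22% and 1.56%. A match is a description of letters and not a site in use. Capitals mark these motifs on either strand. Ndufaf4 (chr4:24897833-24898082, + strand), an assembly factor of complex I, had the largest difference between stages. Atp5k (chr5:108434400-108434649, − strand), a small membrane subunit of ATP synthase, had the largest difference between cytokines. Atp5j (chr16:84834977-84835226, − strand), a subunit of the peripheral stalk of ATP synthase, held all 3 in this window. Its other window (chr16:84835626-84835875), not shown, held none of them.
Ndufaf4: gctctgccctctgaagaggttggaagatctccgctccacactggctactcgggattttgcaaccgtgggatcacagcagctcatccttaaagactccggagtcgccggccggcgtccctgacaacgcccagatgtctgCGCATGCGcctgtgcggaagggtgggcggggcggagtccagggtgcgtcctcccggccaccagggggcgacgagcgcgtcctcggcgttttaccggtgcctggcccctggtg
Atp5k: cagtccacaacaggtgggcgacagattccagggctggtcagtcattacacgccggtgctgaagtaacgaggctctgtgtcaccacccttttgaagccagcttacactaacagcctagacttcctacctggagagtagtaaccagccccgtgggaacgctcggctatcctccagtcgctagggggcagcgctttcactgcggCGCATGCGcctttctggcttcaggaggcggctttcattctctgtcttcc
Atp5j: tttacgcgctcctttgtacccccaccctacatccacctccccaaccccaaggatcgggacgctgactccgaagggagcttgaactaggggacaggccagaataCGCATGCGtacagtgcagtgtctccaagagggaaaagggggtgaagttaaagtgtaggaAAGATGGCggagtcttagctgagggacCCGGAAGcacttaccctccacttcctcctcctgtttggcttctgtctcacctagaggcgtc

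Summed over the 82 members, the level was 8428, 9044 and 7714 CPM in the IL-3 immature libraries and 6331, 5628 and 5656 CPM in the IL-3 mature libraries. It was 5749.9, 6309.5 and 4214 CPM in TSLP immature and 5371, 3462 and 2889 CPM in TSLP mature libraries. IL-3 immature cells thus stood above all other libraries, and the TSLP groups overlapped each other through TSLP immature replicate 3 and TSLP mature replicate 1. As a share of all counts the members took 0.957% ± 0.0751 (SD, n = 3) in immature and 0.568% ± 0.042 in mature cells with IL-3, and 0.512% ± 0.126 and 0.385% ± 0.156 with TSLP. Complex IV went from 1827 CPM ± 279 in IL-3 immature to 569.96 CPM ± 292 in TSLP mature cells. Complex II ran the other way between cytokines, at 203 CPM ± 27.2 in IL-3 mature and 286 CPM ± 63.0 in TSLP mature cells. The sums are without length correction. Complex IV genes have transcripts of 452 to 1001 bases and complex II genes of 1142 to 3171 bases. These sums are a description without a test, and since they are parts of a whole, fewer cells of a type and less RNA per cell cannot be told apart.

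**Figure D2:**
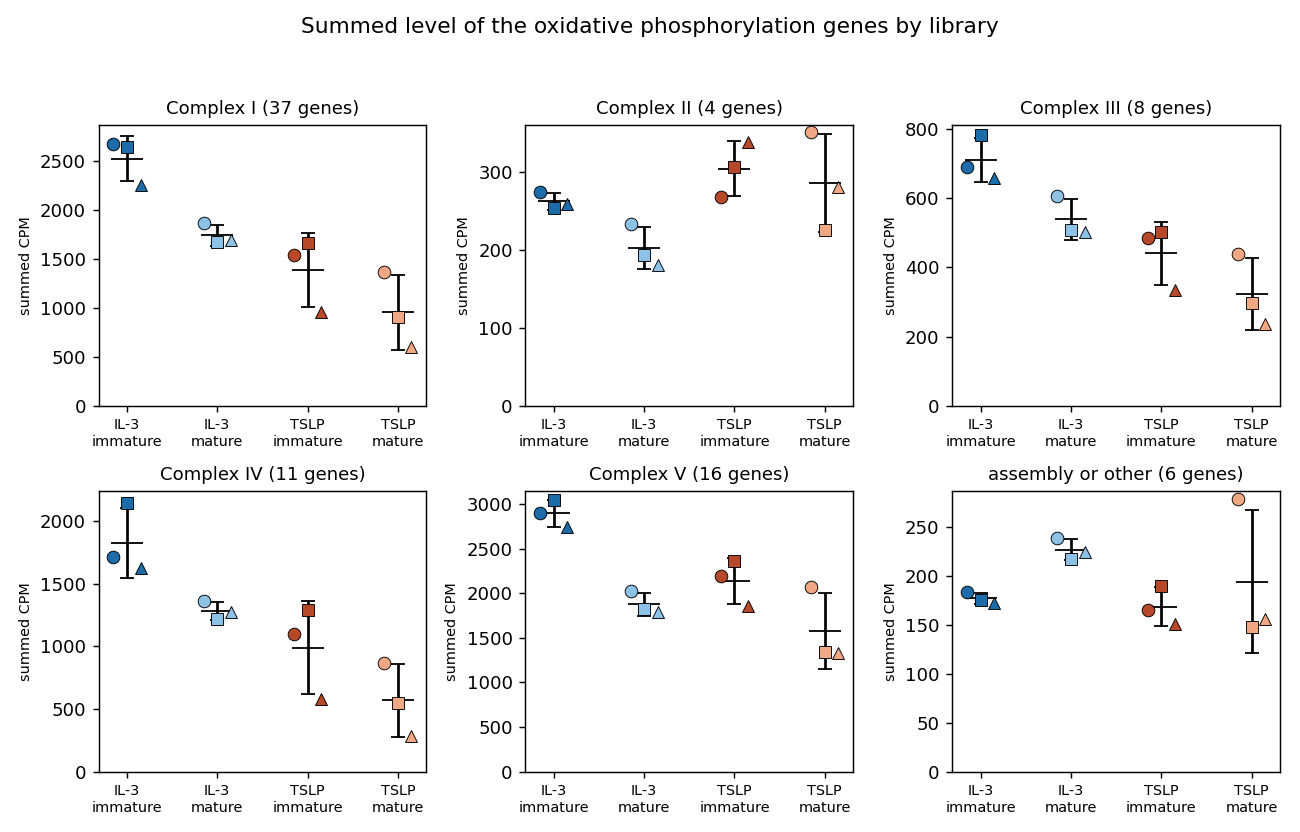
Summed CPM of the members of each complex (y axis, from 0) in each group (x axis). Circles, squares and triangles are replicates 1, 2 and 3, and bars give the mean and SD. Complexes I, III, IV and V are highest in IL-3 immature cells and lowest in TSLP mature cells, which complex II is not.

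The first comparison asked how the members differ between stages in the IL-3 culture. Of the 82 members 31 were higher in immature than in mature cells and 1 was lower (edgeR quasi-likelihood test, adjusted p under 0.05), against 22.1% of all 10861 genes higher and 24.1% lower. The median member had a log2 fold change of 0.65, against −0.06 over all genes tested, and 74 members had a value above 0. The members higher in immature cells came from every complex: 16 of complex I, 2 of complex II, 3 of complex III, 3 of complex IV and 6 of complex V, with 1 assembly factor. Among the members the log2 fold change had a Spearman correlation of −0.04 with length over 82 genes, all read from the same 6 libraries. Over 9680 other protein-coding genes it was −0.05.

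Ndufaf4 stood at 20.8, 15.9 and 13.8 CPM in IL-3 immature and 2.13, 3.99 and 2.69 CPM in IL-3 mature libraries, without overlap (log2 fold change 2.49, SE 0.40, adjusted p = 8.8e-05). The call held without any 1 of the 12 libraries. Ndufaf4 met the minimum mean of 5 CPM through its immature libraries. All its mature libraries, with IL-3 and with TSLP, stood below 5 CPM. Atp5a1, the alpha subunit of the catalytic head of ATP synthase, stood at 611, 492 and 498 CPM against 218, 243 and 246 CPM. Its group means were 534 ± 67.0 and 236 ± 15.5 CPM (SD, n = 3; edgeR log2 fold change 1.18, SE 0.16, adjusted p = 2.2e-05), and its partner Atp5b, the beta subunit, rose by 1.02 (SE 0.18, adjusted p = 0.00022). Ndufc2, an accessory subunit in the membrane arm of complex I, was at 72.9, 72.8 and 60.003 CPM in immature and 21.3, 16.7 and 17.5 CPM in mature libraries (1.89, SE 0.37, adjusted p = 0.00062). Uqcrq, a small subunit of complex III, was at 68.6, 92.7 and 84.4 CPM against 20.6, 22.9 and 23.8 CPM (1.88, SE 0.37, adjusted p = 0.00055). In all 4 genes the immature libraries lay above the mature ones.

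The list called catalytic core here holds 16 nuclear genes of complexes I, II, III and V and none of complex IV. Of these genes 9 were higher in IL-3 immature cells and none was lower, with a median of 0.62. They were Ndufv1 and Ndufv2, which hold the NADH-binding end of complex I, Ndufs8, an iron-sulfur subunit, Sdha and Sdhc of succinate dehydrogenase, Uqcrc1 and the Rieske protein gene Uqcrfs1 of complex III, and Atp5a1 and Atp5b. Sdha, which carries the flavin of complex II, had 113, 83.9 and 95.3 CPM against 70.9, 72.2 and 67.8 CPM (0.47, SE 0.17, adjusted p = 0.035). Ndufs1, the largest subunit of complex I, was 0.38 (SE 0.21, adjusted p = 0.145) and did not pass, with 1 immature library at 48.5 CPM below the mature range. The 1 member lower in immature cells was Cox7a2l, which helps complexes III and IV join into supercomplexes, at 101.5, 102 and 114 CPM in immature and 179, 163 and 169 CPM in mature libraries (−0.69, SE 0.22, adjusted p = 0.018). Up to 19.8% of the 50-base stretches of its transcript occur in other genes, so its counts are less certain.

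With the length correction 35 members were higher and 2 lower, against 25.5% and 25.8% of 10259 genes, with a median of 0.46, and all 31 first called were among the 35. The count higher was 18 without IL-3 mature replicate 2, 17 without IL-3 mature replicate 3 and 19 without IL-3 immature replicate 2. Cox7a2l did not pass in those 3 fits, nor without IL-3 immature replicate 1 or 3. Among 51 members that share under 10% of their stretches with other genes, 19 were higher and 0 lower.

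**Figure D3:**
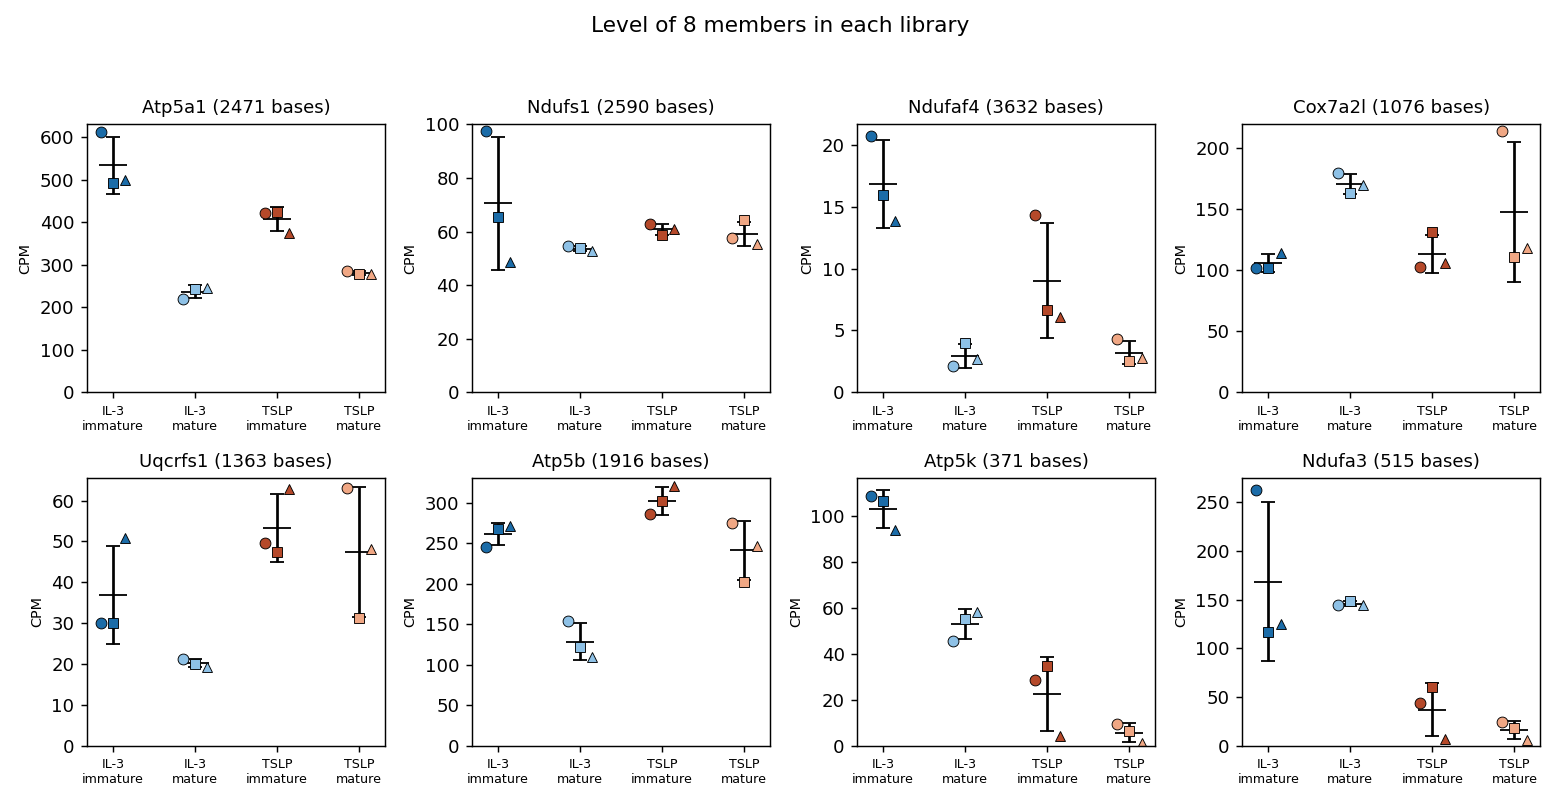
Level of 8 members in CPM (y axis, from 0) in each group (x axis). Circles, squares and triangles are replicates 1, 2 and 3, and bars give the mean and SD. Atp5a1 and Ndufaf4 separate the stages in both cultures, Uqcrfs1 and Atp5b are lowest in IL-3 mature cells, and Atp5k and Ndufa3 are low in TSLP libraries, at 1.23 and 6.43 CPM in TSLP mature replicate 3.

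The same question was asked in the TSLP culture. Of the 82 members 12 were higher in immature cells and 0 lower, against 12.2% of all genes higher and 12.9% lower. The count higher was thus near the share of all genes. The median was 0.67, against −0.03 over all genes tested. The 12 were Atp5a1, Atp5g3, Atp5k, Cox5b, Cox7a2, Ndufa4, Ndufa5, Ndufaf4, Ndufc2, Ndufs4, Ndufs5 and Uqcrq, and 10 of them were also higher in IL-3 immature cells. These 10 are 83.3% of the 12 and 32.3% of the 31, while over all genes tested 89.7% of those higher in TSLP immature cells and 49.6% of those higher in IL-3 immature cells were called in both. The stage comparisons of the 2 cultures share no library. Atp5a1 stood at 422, 423 and 374 CPM in TSLP immature and 286, 279 and 278 CPM in TSLP mature libraries, without overlap (0.53, SE 0.16, adjusted p = 0.023). Ndufaf4 was at 14.4, 6.61 and 6.10 CPM against 4.30, 2.54 and 2.76 CPM (1.498, SE 0.39, adjusted p = 0.0096), again without overlap, and did not pass without TSLP immature replicate 1 (1.03). All TSLP immature libraries lay above the mature ones in 3 of the 82 members and in 1940 of 10861 genes. They lay below in 1 member and 2219 genes.

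The 3 called members with the largest values had wide spread. Atp5k was at 28.7, 34.6 and 4.07 CPM in TSLP immature and 9.40, 6.50 and 1.23 CPM in TSLP mature libraries (1.94, SE 0.56, adjusted p = 0.018). Ndufa5, a small complex I subunit, was at 12.6, 15.95 and 2.37 CPM against 4.30, 3.39 and 0.613 CPM (1.84, SE 0.55, adjusted p = 0.021). Ndufa4, now counted to complex IV, was at 116, 125 and 38.3 CPM against 45.7, 30.5 and 11.6 CPM (1.66, SE 0.42, adjusted p = 0.0086). In all 3 genes replicate 3 was the lowest library of its group and the groups overlapped. Among the catalytic core 1 of 16 genes was called, Atp5a1, and the median was 0.10.

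Members' log2 fold changes fell with transcript length here, with a Spearman correlation of −0.60 over 82 genes, against −0.02 over 9680 other protein-coding genes. The 41 members under 750 bases had a median of 0.86 and the 365 other genes of that length one of 0.49. At 1500 bases or more the medians were 0.10 for 16 members and −0.06 for others. With the length correction 16 members were higher and 0 lower, against 15.4% and 15.5% of genes, and the median was 0.30. The count higher was again near the share of all genes. Atp5k and Uqcrq then no longer passed, while Atp5b (0.41), Atp5j, Cox6c, Cox7b, Ndufa9 and Ndufb6 did. Cox6c and Ndufb6 share 21.1% and 34.1% of their stretches with other genes. The count of members higher moved with single libraries, and was 56 without TSLP mature replicate 1 and 40 without TSLP immature replicate 3. It was 5 without TSLP mature replicate 2, 3 without TSLP mature replicate 3, 1 without TSLP immature replicate 1 and 2 without TSLP immature replicate 2. The median of 0.67 became 1.22 without TSLP mature replicate 1, 1.08 without TSLP immature replicate 3 and 0.41 without TSLP mature replicate 3.

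The next comparison asked how the members differ between the cytokines in mature cells. Of the 82 members 36 were lower with TSLP and 8 higher, against 11.9% of all genes lower and 12.4% higher, and the median was −0.73 against 0.09 over all genes tested. Those lower were 15 of complex I, 4 of complex III, 9 of complex IV, 7 of complex V and 1 assembly factor, none of them from complex II. Those higher included Ndufv2 of complex I, Sdhc, Uqcrc1 and Uqcrfs1, and Atp5b, Atp5c1 and Atp5f1 of complex V. Atp5f1 shares 38.7% of its stretches with other genes, so its counts are less certain. Of the 16 catalytic core genes 6 were higher and 0 lower (median 0.57), and of the 66 other members 2 were higher and 36 lower (median −1.15). After length correction the core had 7 higher and 0 lower (median 0.46) and the other members 7 higher and 31 lower (median −0.42). The core genes are also the longer ones, at a median of 1657 against 659 bases, so that role and length move together in this set.

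Uqcrfs1 stood at 63.1, 31.4 and 48.1 CPM in TSLP mature and 21.3, 19.9 and 19.3 CPM in IL-3 mature libraries, without overlap (log2 fold change 1.23, SE 0.27, adjusted p = 0.0044). Atp5b was at 275, 203 and 247 CPM against 154, 122 and 110 CPM (0.91, SE 0.18, adjusted p = 0.0026). Atp5c1, the gamma subunit that turns inside the catalytic head, was at 204, 137 and 200 CPM against 119, 101.2 and 85.8 CPM (0.82, SE 0.21, adjusted p = 0.011). These 3 genes were higher in each TSLP mature library than in each IL-3 mature library.

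In the other direction, Atp5k was at 9.40, 6.50 and 1.23 CPM with TSLP and 45.4, 55.1 and 57.9 CPM with IL-3 (−3.17, SE 0.54, adjusted p = 0.0012). Ndufa3, a small accessory subunit of complex I, was at 23.9, 18.1 and 6.43 CPM against 144, 149 and 144 CPM (−3.16, SE 0.55, adjusted p = 0.0012). Ndufa1, another small complex I subunit, was at 41.4, 33.9 and 8.58 CPM against 203, 204 and 196 CPM (−2.84, SE 0.53, adjusted p = 0.0019). The libraries did not overlap in any of the 3, and the lowest value was in each case that of TSLP mature replicate 3. In complex IV the ubiquitous subunits Cox6b1 (−1.98, SE 0.36) and Cox4i1 (−0.80, SE 0.27) both passed.

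Members' values rose with transcript length, with a Spearman correlation of 0.65 over 82 genes, against 0.004 over 9680 other protein-coding genes. Under 750 bases 26 of 41 members were lower and 0 higher (63.4% lower, median −1.38), and of 365 other genes 40.5% were lower (median −0.70). From 750 to under 1500 bases 10 of 25 members were lower (median −0.21), against 10.6% of 1421 other genes (median 0.18). At 1500 bases or more 6 of 16 members were higher and 0 lower. With the length correction 31 members were lower and 14 higher, against 14.4% and 13.8% of genes, and the median moved to −0.13. Of the 36 lower 29 were called again, among them Atp5k (−1.87), Ndufa3 (−2.05) and Ndufa1 (−1.59). Atp5h, Cox7c, Ndufa4, Ndufa7, Ndufb2, Uqcr10 and Uqcr11 were not. Those newly higher were Atp5g1, Atp5g2, Atp5g3, Atp5o, Cox5a, Ndufs3 and Sdhb, and Ndufv2 no longer passed. Atp5g1, Atp5g2, Atp5o, Cox5a and Ndufs3 share 32.0% to 100% of their stretches with other genes, so their counts are less certain. For complex III the median turned from −0.98 to 0.23 and for complex V from −0.12 to 0.19, while that of complex IV went from −1.51 to −0.59. The correction takes out a value set by a gene's length in each library, and leaves what differs between genes of like length.

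The count lower was 22, 23 and 23 without IL-3 mature replicates 1, 2 and 3 and 23 without TSLP mature replicate 3. The count higher was 3 without IL-3 mature replicate 2, 2 without IL-3 mature replicate 3, 3 without TSLP mature replicate 1 and 5 without TSLP mature replicate 3. The median of −0.73 became −1.33 without TSLP mature replicate 1 and −0.44 without TSLP mature replicate 3.

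**Figure D4:**
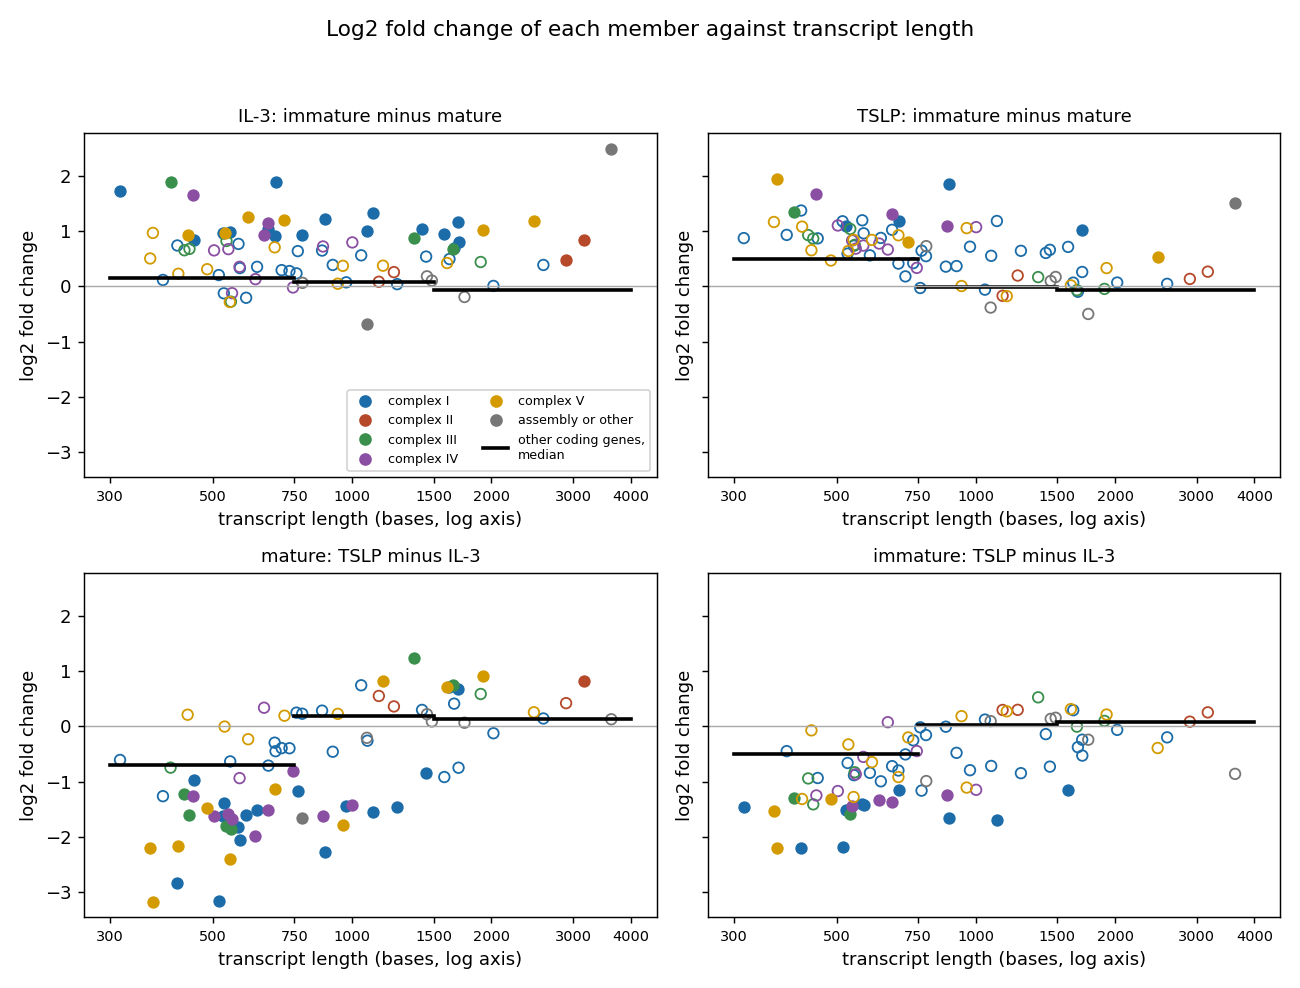
Log2 fold change of each member (y axis) against its transcript length in bases (x axis, log scale) in the 4 comparisons. Filled points passed an adjusted p of 0.05, and black lines give the median of other protein-coding genes under 750, from 750 to under 1500 and at 1500 bases or more. In the 3 panels with TSLP libraries the values run with length (Spearman −0.60, 0.65 and 0.64), and in the IL-3 panel they do not (−0.04).

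The cytokines were compared in immature cells in the same way. Of the 82 members 19 were lower and 0 higher, against 5.9% of all genes lower and 7.38% higher, and the median was −0.73 against 0.04. The 19 were 10 genes of complex I, 2 of complex III, 4 of complex IV and 3 of complex V. Ndufa1 was at 85.0, 116 and 17.3 CPM with TSLP and 413, 335 and 257 CPM with IL-3 (−2.20, SE 0.51, adjusted p = 0.0096). Atp5k was at 28.7, 34.6 and 4.07 CPM against 109, 106 and 93.6 CPM (−2.20, SE 0.48, adjusted p = 0.00698). Ndufa3 was at 44.0, 59.9 and 6.78 CPM against 262, 117 and 125 CPM (−2.19, SE 0.52, adjusted p = 0.012). No TSLP immature library reached an IL-3 immature library in these 3 genes, and replicate 3 was again the lowest. All TSLP immature libraries lay below in 45 of the 82 members and in 1931 of 10861 genes. They lay above in 2 members and 2198 genes.

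None of the 16 catalytic core genes was called in immature cells, where their median was 0.09. After length correction 1 was lower, Atp5a1 (−0.48). Atp5b stood at 286, 302 and 321 CPM with TSLP and 246, 267 and 271 CPM with IL-3 (0.21, SE 0.18, adjusted p = 0.46). The correlation with transcript length was 0.64 over 82 genes, against 0.09 over 9680 other protein-coding genes. Of the 19 lower members 15 have transcripts under 750 bases. With the length correction 20 members were lower and 2 higher, against 9.13% and 8.89% of genes, with a median of −0.33. Of the 19 first called 15 stayed, and Atp5h, Atp5mpl, Ndufc1 and Uqcrq did not. Those newly higher were Atp5g2 (0.81), whose stretches all occur in other genes, and Cox5a (0.54), of whose stretches 32.0% do. The count lower was 6, 4 and 10 without IL-3 immature replicates 1, 2 and 3, 11 without TSLP immature replicate 1 and 5 without TSLP immature replicate 3. It was 37 without TSLP mature replicate 1 and 34 without TSLP mature replicate 3, which belong to neither group compared and enter through the shared scaling and estimate of spread. The median became −0.47 without TSLP immature replicate 3. The cytokine comparisons share their groups with the stage comparisons, and so are not independent of them.

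**Figure D5:**
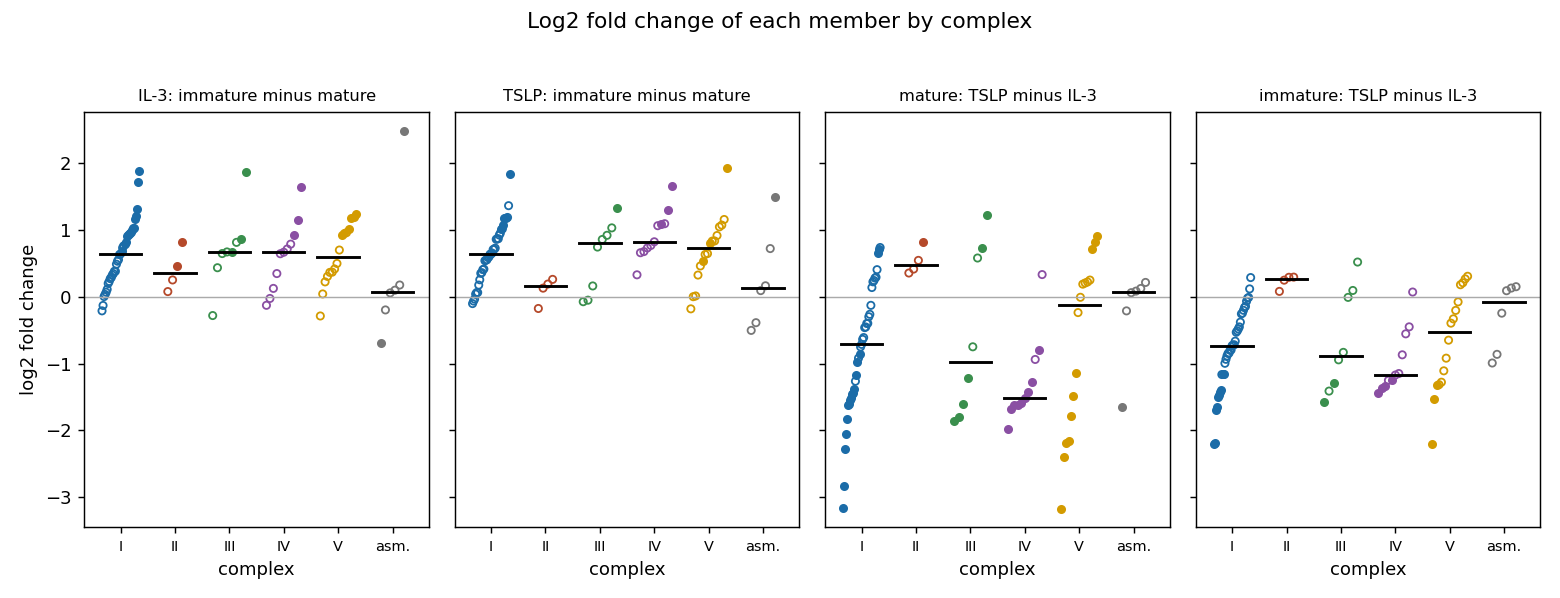
Log2 fold change of each member (y axis) by complex (x axis, asm. for assembly factors and other genes), ordered within a complex by value. Filled points passed an adjusted p of 0.05 and black lines give the median of a complex. Complex II has medians of 0.48 and 0.27 in the cytokine comparisons, or 0.37 and 0.22 with the length correction. Complex IV has −1.51 and −1.17, or −0.59 and −0.46 with the correction, which is not drawn. Transcripts of complex II genes have 1142 to 3171 bases and those of complex IV genes 452 to 1001 bases.

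Whether the difference between stages itself differed with the cytokine was tested as an interaction. No member passed the edgeR test, against 2.14% of all genes higher and 2.04% lower, and 6 members had an unadjusted p under 0.05. The DESeq2 test called 1 member lower. The median over the 82 members was 0.01, and values ran from −0.99 for Ndufaf4 (SE 0.57) to 1.12 for Atp5l (SE 0.71). Atp5l shares 84.8% of its stretches with other genes. The smallest p was that of Ndufv2, with a stage difference of 1.16 with IL-3 and 0.26 with TSLP and an interaction of −0.91 (SE 0.29, adjusted p = 0.092). Without TSLP mature replicate 2 the edgeR test called 1 member lower. With the length correction Uqcrh, the hinge protein of complex III, was higher (0.71) and Ndufc1 lower (−1.30). The core genes had a median interaction of −0.53 and the other members one of 0.15, or −0.46 and 0.03 with the length correction. The median over all members turned on single libraries: it was 0.45 without TSLP mature replicate 1, 0.36 without TSLP immature replicate 3, 0.17 without IL-3 immature replicate 2, −0.14 without TSLP immature replicate 2 and −0.24 without TSLP mature replicate 3.

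Several subunits exist as alternative isoforms, and the forms found elsewhere in tissues such as muscle, lung or testis were at or near 0. Cox6a2, Cox8b and Ndufa4l2 had 0 counts in all 12 libraries, which allows up to 1.45 CPM in the shallowest library. Cox7b2 had 1 count, Cox4i2 had 2, Cox7a1 had 4 and Cox6b2 had 35 counts over the 12 libraries. The matching ubiquitous forms were Cox4i1 at a mean of 237 CPM, Cox6a1 at 100 CPM, Cox6b1 at 98.7 CPM, Cox7a2 at 72.3 CPM, Cox8a at 120 CPM and Ndufa4 at 104 CPM. The 3 genes for subunit c of ATP synthase differ in their leader peptides and give the same mature protein. All 3 were higher in IL-3 immature than in IL-3 mature cells, with log2 fold changes of 1.25 for Atp5g1, 0.93 for Atp5g2 and 1.20 for Atp5g3. Atp5g3, which shares no stretch with another gene, had the same direction with TSLP (0.81, SE 0.27, adjusted p = 0.041). Atp5g1 and Atp5g2 share 66.0% and 100% of their stretches, and their values are uncertain.

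Compared per kilobase of transcript, the highest members by mean CPM per kilobase were Ndufa1 at 380, Atp5h at 329, Cox4i1 at 318, Atp5e at 312 and Uqcrh at 298. Atp5h shares 66.6% of its stretches with other genes, so its place is uncertain. The lowest were the assembly factors Ndufaf4 at 2.20, Ndufaf1 at 4.33 and Ndufaf7 at 6.52. The order moved with the group. Ndufa1 went from 799 CPM per kilobase in IL-3 immature to 66.7 in TSLP mature cells, while Cox4i1 went from 382 to 222 and Atp5g3 from 330 to 164. Since short transcripts differed between libraries, the order of members of unlike length is uncertain within the TSLP groups as well as between cytokines.

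The 13 subunits encoded in mitochondrial DNA are set beside the nuclear ones. For comparison, 22.1% of all genes were higher in IL-3 immature cells and 12.2% in TSLP immature cells. In the IL-3 culture 2 were higher in immature cells, MT-Nd1 (1.18, SE 0.26, adjusted p = 0.0017) and MT-Nd5 (0.66), with a median of 0.37, and in the TSLP culture 1 was, MT-Nd3 (1.51). In mature cells with TSLP MT-Nd1 was higher (1.40, SE 0.27, adjusted p = 0.0021) and MT-Nd3 lower (−2.41, SE 0.53, adjusted p = 0.0052), with a median of 0.40. The nuclear members had −0.73, or −0.13 with the length correction, which could not be made for the 13. In immature cells MT-Nd3 alone passed (−1.61). MT-Co1, the catalytic subunit of complex IV, had group means of 5042 CPM in immature and 4944 CPM in mature cells with IL-3, and of 6097 and 7585 CPM with TSLP, and passed in none of these comparisons. Summed over the 13 subunits, TSLP mature replicate 1 stood at 36162 CPM and replicates 2 and 3 at 16615 and 16622.5 CPM. The IL-3 mature libraries stood between 14812 and 18187 CPM, so the higher TSLP mature level rests on replicate 1.

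Electron carriers and the enzymes that feed the chain were read next. Cycs, the gene of cytochrome c, stood at 120 CPM in IL-3 immature and 34.7 CPM in IL-3 mature cells (1.78, SE 0.24, adjusted p = 1.9e-05), and 4 of 5 genes for cytochrome c, cytochrome c1 and electron transfer flavoproteins were higher there, and 1 of 5 in TSLP immature cells. Of 18 genes of the tricarboxylic acid cycle and pyruvate dehydrogenase 11 were higher and 1 lower in IL-3 immature cells (median 0.62), led by Idh2 (3.27) and Idh3a (2.55), and in TSLP immature cells 3 were higher and 1 lower (median 0.24). In mature cells 9 of the 18 were higher with TSLP and 0 lower, with a median of 0.63 (8 higher and 1 lower with the length correction), among them Idh3a (1.39). Of 10 coenzyme Q genes tested 3 were higher and 1 lower in IL-3 immature cells, near the 22.1% and 24.1% of all genes, and in TSLP immature cells 1 was higher and 2 lower. With TSLP 3 were higher and 0 lower in mature cells, with a median of 0.70. Of all genes 12.2% were higher and 12.9% lower in TSLP immature cells, and 12.4% and 11.9% with TSLP in mature cells.

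The mitochondrial ribosome makes the subunits of mitochondrial DNA, and the import machinery brings in the nuclear ones. Of 77 mitochondrial ribosomal protein genes 35 were higher and 1 lower in IL-3 immature cells (median 0.74), and 8 were higher and 0 lower in TSLP immature cells (median 0.44). In mature cells 5 were higher and 7 lower with TSLP (median 0.11), and in immature cells 0 were higher and 3 lower (median −0.23). Of 23 import genes 12 were higher and 1 lower in IL-3 immature cells, and in TSLP immature cells 3 were higher and 1 lower. With TSLP 7 of the 23 were higher and 5 lower in mature cells, and 0 and 2 in immature cells. Of 38 assembly factors outside the name rule 6 were higher and 3 lower in IL-3 immature cells, 3 and 0 in TSLP immature cells. Between the cytokines 3 of these were higher and 5 lower with TSLP in mature cells, 0 and 3 in immature cells. Of all genes tested 22.1% were higher and 24.1% lower in IL-3 immature cells, and 12.2% and 12.9% in TSLP immature cells. With TSLP 12.4% were higher and 11.9% lower in mature cells, and 7.38% and 5.9% in immature cells. The counts higher of ribosomal protein and import genes between IL-3 stages lay above these shares. So did both counts of import genes between mature groups, which with the length correction became 5 and 3, against 13.8% and 14.4% of genes. The other counts were near or below the shares.

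Of 11 regulators of mitochondrial biogenesis tested, 4 were higher in IL-3 immature cells: Tfam, which packages and transcribes mitochondrial DNA (1.44, SE 0.27, adjusted p = 0.00045), the coactivator gene Pprc1 (2.23), Gabpb1 (0.60) and Myc (1.13). Esrra, a nuclear receptor known to act on respiratory genes, was lower in immature cells of both cultures (−0.84 with IL-3 and −0.88 with TSLP). Nrf1 and Gabpa, whose motifs were searched above, had values of 0.19 (adjusted p = 0.52) and 0.10 (adjusted p = 0.69) in the IL-3 culture. In mature cells with TSLP 4 of the 11 were higher and 1 lower, with a median of 0.36. The shares of all genes were 12.4% and 11.9% there, and 22.1% higher and 24.1% lower in IL-3 immature cells. Those higher were Myc (1.79, SE 0.30, adjusted p = 0.00103), Pprc1 (2.34), Gabpb1 (0.72) and Esrra (0.54), and the lower one was Yy1 (−0.79).

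Proliferation genes and markers of other cells moved with the same comparisons. All 20 proliferation genes were higher in immature cells, with a median of 5.47 with IL-3 and 3.23 with TSLP. With TSLP 16 of 20 were higher in mature cells, and 4 were lower and 0 higher in immature cells. Of 8 neutrophil genes tested 2 were lower and 1, Mpo, higher in IL-3 immature cells, and 6 were lower and 1 higher in TSLP immature cells. Over all genes 24.1% were lower and 22.1% higher in IL-3 immature cells, and 12.9% and 12.2% in TSLP immature cells. The summed level of the 9 listed was 734 to 812 CPM in immature and 279.7 to 402 CPM in mature cells with IL-3, and 318 to 413 CPM and 37.1 to 756 CPM with TSLP. Of 6 macrophage and monocyte genes 4 were lower in IL-3 immature and 6 in TSLP immature cells, and their sum reached 608 CPM in TSLP mature and 317 CPM in IL-3 mature libraries. Adgre1 and Ly6c2 had means of 195 and 199.9 CPM in TSLP mature cells. B cell genes summed to 20.1 to 175 CPM in TSLP mature and 2.13 to 2.90 CPM in IL-3 mature libraries. In TSLP mature replicate 1 the neutrophil, B cell and macrophage sums were 756, 175 and 608 CPM, and in the other 2 libraries of the group they were at most 49.7, 21.8 and 409 CPM. The 5 mast cell genes summed to no more than 8.86 CPM in any library, and Mrgprb2 had 0 counts throughout. For 3 eosinophil genes the highest sum was 50.8 CPM, in TSLP mature cells. The part of other cells in the results for the members was not tested.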

How the data were processed

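Polyadenylated RNA of sorted cells was captured on oligo(dT) beads, amplified by PCR as whole transcriptome, fragmented and read on an Ion Proton sequencer. The authors trimmed reads with Cutadapt, aligned them to mouse reference RNA with Bowtie2 and deposited read counts per gene symbol, without normalisation. The study's methods give GRCm38, and the processing notes list GRCm39 and mm10. Strand and the treatment of reads that fit several genes are not stated there, so 50-base stretches shared with other genes are reported.

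A row without a gene name, 50% of each column, was left out. Genes were filtered with filterByExpr (minimum count 10, total 15) and tested with edgeR 4.0.16 (TMM, quasi-likelihood, R 4.3.3) over all 12 libraries with 4 groups and no covariate. Benjamini-Hochberg adjustment ran over 10861 genes, with a threshold of 0.05. The study used TCC, which was not run here. The biological coefficient of variation was 20.4%. DESeq2 1.42.0 was an alternative, and the script was tested on simulated data. Transcript lengths came from GENCODE (GRCm38).

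Members and lists were chosen with earlier results of these data known. Named were catalytic core subunits, isoform families, the 3 called members with the largest change in each direction of a comparison, members called in the interaction, and those nearest the 5 CPM minimum. Other genes named, among them Sdhc, Cox5a, Ndufb6 and single list genes, were chosen after their values were seen. Intervals were not computed for single libraries, and CPM of members rest on 1720065 to 3685285 counts per library. A few single genes of the lists are not reported here by name.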

Additional observations from a re-analysis of the deposited data

How the results depend on the processing

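None of the 52 calls of named members reversed under any alternative run, and 34 to 52 of them passed in each. The counts of members called moved more. In IL-3 cells, 48 members were higher in immature cells without a filter on low counts and 56 in a fit on the 2 groups. The count lower was 0 with a minimum of 10 CPM in 3 libraries, 2 with the length correction, also without ribosomal protein genes or with the block, and 0 without the libraries numbered 3. In TSLP cells 46 were higher without the filter, 2 in the fit on 2 groups, 20 with length correction and block, and 34 without the libraries numbered 3. In mature cells 3 were higher with TSLP in the fit on 2 groups, 14 with the length correction, also with the block, and 1 without the libraries numbered 3. In immature cells 2 were higher with the length correction, also with the block, and 1 when ribosomal protein genes were left out of it. The count lower was 43 without the filter, 33 in the fit on 2 groups and 29 with length correction and block. In the interaction 1 was higher without the filter and 1 with the length correction, also with the block. The count lower there was 1 with DESeq2, 1 with the length correction and 2 with length correction and block. The cause of these shifts was not tested.

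Leaving out 1 library at a time, 17 to 38 members were higher and 0 to 1 lower between IL-3 stages, and 1 to 56 higher and 0 lower between TSLP stages. Between cytokines 2 to 10 were higher and 22 to 51 lower in mature cells, and 0 higher and 4 to 37 lower in immature cells. The interaction had 0 higher and 0 to 1 lower.

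The groups share replicate numbers. Over all genes tested, no pair of groups had correlations of deviations above 0.1 for all 3 numbers. Between the TSLP stages they were 0.16, 0.06 and 0.37 for numbers 1 to 3. Whether libraries of a number share more than the number cannot be settled by this limit. With the replicate block 36 members were higher and 1 lower between IL-3 stages, 28 higher and 0 lower between TSLP stages, 10 higher and 40 lower between mature groups, 0 higher and 39 lower between immature groups, and 0 in the interaction. All 6 libraries of the immature groups correlated best with their own number, and 2 to 5 of 6 did in the other pairs of groups, which is a hint from the data and not from the design.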
